A study of Mus musculus with 6 samples.

Results

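The 10 genes described here encode immediate-early transcription factors and 1 related nuclear protein. They are Fos, Fosb, Jun, Junb and Jund, whose proteins pair to form the AP-1 factor, the zinc finger factors Egr1, Egr2 and Egr3, the orphan nuclear receptor Nr4a1, and Ier2. They were taken from a list of names drawn up with earlier results of these data known, so they are not an unselected sample, and all 10 were found by symbol among 49671 gene identifiers in the count table. Each of the 10 passed the low-count filter in every comparison below.

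Immediate-early genes are transcribed within minutes of a signal from growth factors, cytokines or stress, because the factors that switch them on are already present in the cell. Fos-family proteins bind DNA only as partners of Jun-family proteins, whereas Jun proteins also pair among themselves. In blood stem and progenitor cells, EGR1 and the NR4A receptors are known for holding cells in quiescence, and JUNB for restraining myeloid expansion.

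The RNA came from bone marrow cells of BALB/c mice that had been infected with a retrovirus carrying a short hairpin RNA. One group carried a hairpin against Cxxc5 (shCxxc5) and the other a hairpin with no target (shCtrl). Each group had 3 libraries, and both used the replicate numbers 2, 3 and 4. Infected cells were recognised by GFP and sorted as LSK cells, which lack lineage markers, carry Sca-1 and Kit, and include blood stem cells and early progenitors. Each library pooled cells of several animals. Whether a number marks its own infection or day is not in the labels. The p-values thus rest on the spread of these libraries alone, and that spread may be technical. In edgeR, the coefficient of variation within groups, beyond counting error, was 0.312 over all 6 libraries. Over the 4 libraries numbered 3 and 4 it was 0.0294.

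Total counts ran from 15002414 to 27754019 per library. Cxxc5 itself, in TMM-scaled CPM (a gene's reads relative to a common library total), stood at 82.2, 59.9 and 57.9 in shCtrl libraries 2, 3 and 4 and at 6.74, 17.4 and 17.9 in shCxxc5 libraries 2, 3 and 4. Every shCxxc5 library was thus below every shCtrl library. Both libraries numbered 2 stood apart from the other 4. Ly6a, the gene of the Sca-1 sorting marker, was at 46.4 and 33.1 CPM in them and between 703 and 804 CPM in the rest. Megakaryocyte markers summed to 6419 CPM in shCtrl library 2 and 1536 CPM in shCxxc5 library 2, against 292 to 473 CPM elsewhere. Granulocyte and monocyte progenitor markers summed to 5771 CPM in shCxxc5 library 2 and to between 761 and 1151 CPM in the other 5. T cell markers summed to 1.36 to 2.79 CPM, with Cd3e at 0 in all libraries. Results are therefore given over all 6 libraries and over the 4 libraries numbered 3 and 4.

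In abundance per kilobase of exon (CPM per kb), Junb was the most abundant member, with a mean of 150 CPM per kb over the 6 libraries and a range of 116 to 179. Ier2 followed at 127 CPM per kb (105 to 159) and Jund at 89.1 (66.9 to 113). Fos had 28.5 CPM per kb (21.0 to 33.97), Jun 15.8 (7.33 to 41.4), Egr1 10.6 (6.66 to 19.6) and Nr4a1 7.21 (3.61 to 10.1). The scarcest were Fosb at 2.32 CPM per kb, Egr2 at 0.868 and Egr3 at 0.284. Jund and Fos were the only neighbours in this order whose ranges over the 6 libraries did not overlap. Within each library the order was nearly fixed: Jun exceeded Egr1 in 4 of 6 libraries, Fos exceeded Jun in 5 of 6, and every other neighbour kept its place in 6 of 6.

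**Figure D1:**
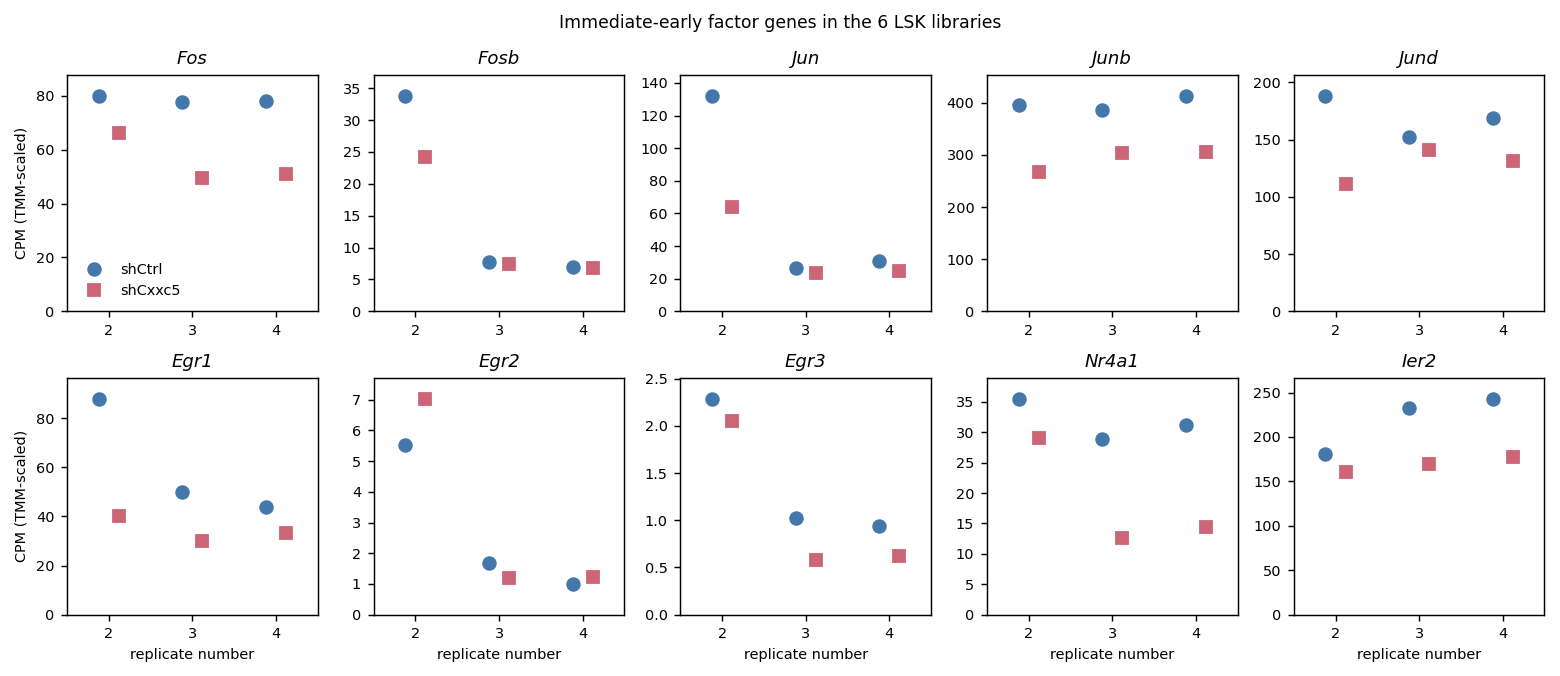
Level of each of the 10 genes in each library, in CPM on linear axes that start at 0, with 1 panel per gene, circles for shCtrl, squares for shCxxc5 and the replicate number along the horizontal axis. Junb lies between 266 and 413 CPM and Egr3 between 0.580 and 2.28 CPM, and the libraries numbered 2 stand above the others for Fosb, Jun, Egr2 and Egr3.

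Promoter windows from RefSeq (build GRCm38.p6, from 250 bases before to 50 after the annotated start, 300 in all) were read for 7 members: Fos, Fosb, Jun, Junb, Jund, Egr2 and Nr4a1. Egr1, Egr3 and Ier2 are named only. Letters searched on both strands were the CArG box, which serum response factor binds, the cyclic AMP response element TGACGTCA, the AP-1 site TGANTCA, the Egr site GCGTGGGCG and the TATA box TATAAA. The shorter core TGACG, contained in every full cyclic AMP response element and reading as CGTCA on the opposite strand, was added after the sequences were seen. Shares of all 32817 windows holding each were 1.63% for the CArG box, 1.79% for TGACGTCA, 7.81% for TGANTCA, 0.612% for GCGTGGGCG, 13.6% for TATAAA and 20.8% for TGACG. Shown are the windows of Fos, Junb and Nr4a1, which fell in replicates 3 and 4, and of Egr2, which did not pass the test there, 5′ to 3′ on the gene's strand with these letters in capitals: Fos at chr12:85473640-85473939 (plus), Junb at chr8:84978699-84978998 (minus), Egr2 at chr10:67537619-67537918 (plus, the window numbered 3 of 5) and Nr4a1 at chr15:101266596-101266895 (plus).
Fos: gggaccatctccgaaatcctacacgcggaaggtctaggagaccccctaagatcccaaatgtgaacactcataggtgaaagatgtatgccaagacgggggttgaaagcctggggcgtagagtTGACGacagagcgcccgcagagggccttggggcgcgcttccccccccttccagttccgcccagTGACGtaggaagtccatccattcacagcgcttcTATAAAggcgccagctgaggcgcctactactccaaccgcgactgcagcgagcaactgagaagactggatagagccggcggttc
Junb: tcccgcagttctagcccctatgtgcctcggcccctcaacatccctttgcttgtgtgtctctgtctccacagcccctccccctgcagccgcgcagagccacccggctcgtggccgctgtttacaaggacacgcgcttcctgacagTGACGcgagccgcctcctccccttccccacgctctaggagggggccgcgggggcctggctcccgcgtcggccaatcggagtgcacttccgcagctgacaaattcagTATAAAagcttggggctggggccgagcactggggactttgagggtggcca
Egr2: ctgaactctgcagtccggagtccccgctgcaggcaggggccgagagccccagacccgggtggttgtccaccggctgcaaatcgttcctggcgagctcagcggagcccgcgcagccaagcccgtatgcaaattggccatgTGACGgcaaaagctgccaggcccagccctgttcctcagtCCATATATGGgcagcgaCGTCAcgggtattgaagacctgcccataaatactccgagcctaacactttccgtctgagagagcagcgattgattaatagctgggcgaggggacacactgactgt
Nr4a1: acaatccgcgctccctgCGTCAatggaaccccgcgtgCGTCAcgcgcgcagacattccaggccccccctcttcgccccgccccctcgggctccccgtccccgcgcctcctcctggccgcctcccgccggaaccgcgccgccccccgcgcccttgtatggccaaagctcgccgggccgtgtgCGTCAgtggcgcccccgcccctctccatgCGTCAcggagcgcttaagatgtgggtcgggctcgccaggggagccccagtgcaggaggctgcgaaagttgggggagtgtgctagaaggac

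The Fos window held TATAAA starting at position -33 from the RefSeq start and TGACG at -129 and -66. In the Junb window, TGACG lay at -106 and TATAAA at 0, the start itself. The Nr4a1 window had CGTCA at -233, -213, -69 and -40, so 4 cores of TGACG on either strand, where 1.03% of all windows held 3 or more. A CArG box was found in the Egr2 window, at -72, between TGACG at -111 and CGTCA at -55. Of the windows not shown, Fosb's had TGACG at -60, and those of Jun and Jund had none of the letters searched. TGACGTCA, TGANTCA and GCGTGGGCG were in none of the 7 members' windows. The RefSeq start is the GENCODE gene start for Fos and Jun, and lies 30 bases before it for Junb, 6 bases after it for Fosb and 1210 bases before it for Jund. For Egr2 (the window shown) and Nr4a1 it lies 2394 and 12577 bases inside the gene, at another annotated transcript start. The windows of Jund and Nr4a1 and the Egr2 window shown thus belong to other starts than the gene positions given here. Of the other Egr2 windows, number 1, with its start 24 bases inside the gene, held none of the letters searched. Number 2 held another CArG box, CCTTTTTTGG, without TGACG. Numbers 4 and 5 held the same letters as the window shown. A match is a description of letters in a window, and its absence says only that those letters are not there.

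Junb (chromosome 8, 84974484 to 84978718, minus strand; all gene positions are GRCm38, GENCODE M21) was lower in every shCxxc5 library. It had 396, 387 and 413 CPM in shCtrl libraries 2, 3 and 4 and 266, 303 and 305 CPM in shCxxc5 libraries 2, 3 and 4, or 399 ± 13.2 against 292 ± 21.8 (SD, n = 3 each). The groups did not overlap, and the shCxxc5 library stood at 67.3%, 78.4% and 73.9% of its same-numbered control. Over all 6 libraries the log2 fold change was -0.45 (SE 0.0893), which did not pass edgeR's quasi-likelihood test with Benjamini-Hochberg adjustment over all genes (adjusted p = 0.94, unadjusted p = 0.00214). In the 4 libraries numbered 3 and 4, Junb fell by 0.39 on the log2 scale (SE 0.0365, edgeR adjusted p = 5.15e-09).

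Jund, a Jun-family member known for its steady expression in resting cells (chromosome 8, 70698949 to 70700616, plus strand), had 188, 152 and 169 CPM in shCtrl libraries 2, 3 and 4 and 112, 141 and 131 CPM in the shCxxc5 libraries. The highest shCxxc5 library lay below the lowest shCtrl library. The log2 fold change over all 6 libraries was -0.41 (SE 0.125, edgeR adjusted p = 0.94, unadjusted p = 0.0165). Jund fell by 0.23 on the log2 scale in replicates 3 and 4 (SE 0.0476, edgeR adjusted p = 0.000861), a call lost without shCtrl replicate 4 (edgeR adjusted p = 0.0566).

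Jun, the strongest transactivator of the family (chromosome 4, 95049034 to 95052222, minus strand), had its highest level of each group in the library numbered 2. Its levels were 132, 26.5 and 31.1 CPM in shCtrl libraries 2, 3 and 4 and 64.1, 23.4 and 24.7 CPM in the shCxxc5 libraries. Each shCxxc5 library was below its same-numbered control, but the groups overlapped because shCxxc5 library 2 exceeded shCtrl libraries 3 and 4. Its log2 fold change over all 6 libraries, -0.76 (SE 0.739), did not pass (edgeR adjusted p = 0.94), and it was 0.38 without shCtrl replicate 2. Within replicates 3 and 4, Jun fell by 0.25 on the log2 scale (SE 0.0868, edgeR adjusted p = 0.0433). The value was -0.14 without shCtrl replicate 4 and -0.37 without shCtrl replicate 3. This call did not hold with DESeq2 (adjusted p = 0.211), without robust fitting in edgeR (adjusted p = 0.0512), or without shCtrl replicate 4, shCxxc5 replicate 3 or shCxxc5 replicate 4 (edgeR adjusted p = 0.349, 0.304 and 0.0774).

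The strand setting of the counting is not given in the sources used here, and reads of overlapping opposite genes cannot be told apart. Of Jun's 3189 exon bases, 232 are shared with the antisense gene Junos, of Junb's 2301 bases 173 with Prdx2, and of Jund's 1668 bases 877 with Gm11175. Junos had 6 to 30 counts per library and Gm11175 16 to 48, against 400 to 3123 counts for Jun and 2121 to 4448 for Jund. Prdx2, an abundant peroxiredoxin gene, had 241 and 247 CPM in shCtrl libraries 4 and 3 and 277 and 271 CPM in shCxxc5 libraries 4 and 3, a direction opposite to that of Junb.

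Fos, the labile AP-1 subunit that gives the family its name (chromosome 12, 85473890 to 85477273, plus strand), had nearly the same level in the 3 shCtrl libraries, at 79.9, 77.5 and 78.2 CPM. In shCxxc5 libraries 2, 3 and 4 it had 66.1, 49.4 and 50.9 CPM. No shCxxc5 library reached the lowest shCtrl library, and libraries 3 and 4 stood furthest below, at 63.7% and 65.2% of their controls against 82.7% for library 2. The log2 fold change over all 6 libraries was -0.50 (SE 0.131, edgeR adjusted p = 0.94, unadjusted p = 0.00821). Fos fell by 0.63 on the log2 scale in replicates 3 and 4 (SE 0.0557, edgeR adjusted p = 1.69e-09).

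Fosb, a Fos relative with a short splice form that accumulates after repeated stimulation (chromosome 7, 19302696 to 19310051, minus strand), did not pass the test in either comparison. It had 33.8, 7.72 and 6.93 CPM in shCtrl libraries 2, 3 and 4 and 24.2, 7.49 and 6.73 CPM in the shCxxc5 libraries. The groups overlapped, and what set libraries apart was the number 2. The log2 fold change was -0.33 over all 6 libraries (SE 0.796, edgeR adjusted p = 0.969), with the opposite sign, 0.81, without shCtrl replicate 2. In replicates 3 and 4 it was -0.04 (SE 0.146, edgeR adjusted p = 0.895), on 103 to 173 counts per library.

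Egr1, a zinc finger factor downstream of mitogen signalling (chromosome 18, 34859823 to 34864984, plus strand), had its 3 lowest levels in the 3 shCxxc5 libraries. It stood at 87.8, 50.0 and 43.8 CPM in shCtrl libraries 2, 3 and 4 and 40.1, 29.9 and 33.1 CPM in the shCxxc5 libraries, with no overlap between the groups. The shCxxc5 levels amount to 45.6%, 59.8% and 75.6% of the same-numbered control. Over all 6 libraries the log2 fold change was -0.82 (SE 0.286, edgeR adjusted p = 0.94, unadjusted p = 0.0281), and it was -0.45 without shCtrl replicate 2. Egr1 fell by 0.59 on the log2 scale in replicates 3 and 4 (SE 0.0754, edgeR adjusted p = 1.3e-06).

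Egr2 and Egr3, relatives that bind the same GC-rich element, were too scarce for a narrow estimate in replicates 3 and 4. Egr2 (chromosome 10, 67535475 to 67542188, plus strand) had 5.54, 1.69 and 1.01 CPM in shCtrl libraries 2, 3 and 4 and 7.02, 1.204 and 1.23 CPM in the shCxxc5 libraries, and 15 to 38 counts in each library numbered 3 or 4. It was the only member not lower in all 3 pairs, with pair log2 ratios of 0.34, -0.46 and 0.27. Its log2 fold change was 0.20 over all 6 libraries (SE 0.927, edgeR adjusted p = 0.987) and -0.20 in replicates 3 and 4 (SE 0.356, edgeR adjusted p = 0.769). The sign turned in both without single libraries: to -1.18 over all libraries without shCxxc5 replicate 2, and to 0.27 in replicates 3 and 4 without shCtrl replicate 3. Egr3 (chromosome 14, 70077203 to 70082614, plus strand) had 2.28, 1.03 and 0.942 CPM in shCtrl and 2.05, 0.580 and 0.617 CPM in shCxxc5 libraries 2, 3 and 4. Each shCxxc5 library lay below its control, but on 10 to 23 counts in libraries 3 and 4, and the log2 fold change there of -0.72 (SE 0.434) did not pass (edgeR adjusted p = 0.267). Differences of Egr2 and Egr3 of the size seen for Egr1 in replicates 3 and 4 were not detectable there at this depth.

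Nr4a1, the nuclear receptor Nur77 that is transcribed on antigen or growth factor signals (chromosome 15, 101254269 to 101274795, plus strand), had the largest change of the 10 in replicates 3 and 4. It stood at 35.5, 28.9 and 31.3 CPM in shCtrl libraries 2, 3 and 4 and at 29.1, 12.7 and 14.4 CPM in the shCxxc5 libraries. Libraries 3 and 4 were at 43.9% and 46.2% of their controls, whereas shCxxc5 library 2, at 82.1%, reached just above shCtrl library 3, so that the groups overlapped. Nr4a1 fell by 1.15 on the log2 scale in replicates 3 and 4 (SE 0.0941, edgeR adjusted p = 3.47e-10). The log2 fold change over all 6 libraries was -0.76 (SE 0.33, edgeR adjusted p = 0.94, unadjusted p = 0.0593), and it was -1.23 without shCxxc5 replicate 2.

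Ier2, a single-exon gene for a nuclear protein induced with the AP-1 genes (chromosome 8, 84661331 to 84662852, minus strand), had 181, 233 and 243 CPM in shCtrl libraries 2, 3 and 4. In the shCxxc5 libraries it had 160, 169 and 178 CPM. All 3 were below the lowest shCtrl library, which was the one numbered 2. Over all 6 libraries the log2 fold change was -0.37 (SE 0.13, edgeR adjusted p = 0.94, unadjusted p = 0.0278), and in replicates 3 and 4 Ier2 fell by 0.45 on the log2 scale (SE 0.0401, edgeR adjusted p = 2.02e-09).

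**Figure D2:**
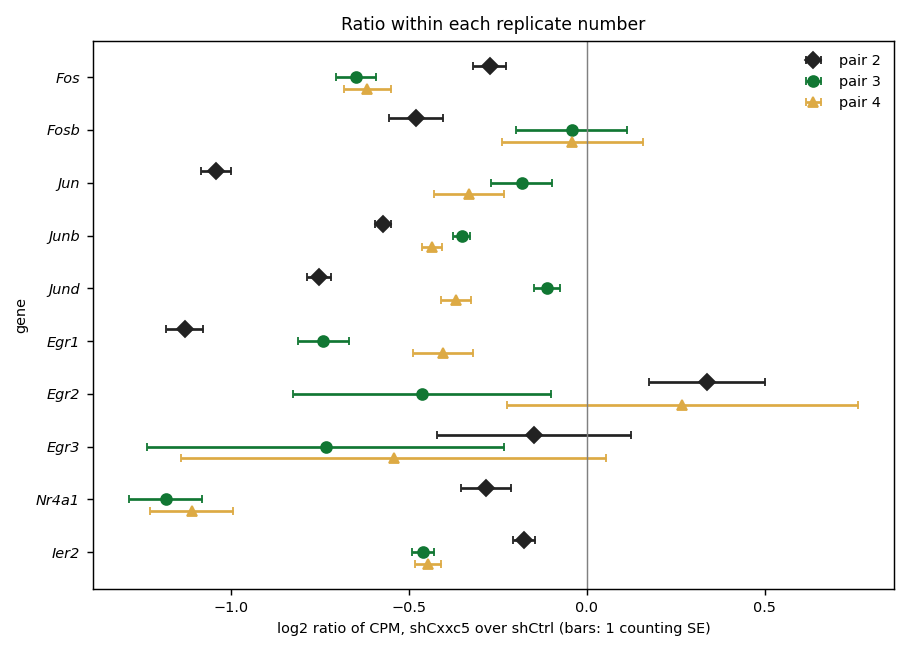
Log2 ratio of shCxxc5 over shCtrl between libraries of the same number, for the 10 genes, with bars of 1 counting standard error that hold no spread between libraries. All 3 ratios are below 0 for 9 genes. Fos, Egr3, Nr4a1 and Ier2 lie further below 0 in pairs 3 and 4 than in pair 2. Fosb, Jun, Junb, Jund and Egr1 lie furthest below 0 in pair 2.

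Counted together, 9 of the 10 genes were lower in shCxxc5 in all 3 same-numbered pairs, and 22.4% of the 14637 genes tested were lower in that way. For 5 of them (Fos, Junb, Jund, Egr1 and Ier2) no shCxxc5 library overlapped a shCtrl library, against 6.35% of all genes. The median log2 fold change over all 6 libraries was -0.43 for the 10 genes and -0.02 for all genes. The members' median was -0.39 without shCtrl replicate 2 and -1.06 without shCxxc5 replicate 2. Each of those fits kept the library numbered 2 in the other group only. No member passed edgeR's test over all 6 libraries in either direction, and neither did any other gene (0% lower and 0% higher). Cxxc5, the target of the hairpin, did not pass there either (log2 fold change -2.25, edgeR adjusted p = 0.94, unadjusted p = 0.00118). At an unadjusted p under 0.05, 5 of the 10 members and 575 of 14637 genes were past the threshold in edgeR, and 6 members and 583 genes in limma-voom, which also called 0 after adjustment. DESeq2 called 1 member lower, Junb (adjusted p = 0.0182), against 0.0956% of all genes. With the replicate number as a block, edgeR again called 0 members, with 7 members and 1796 genes under 0.05 unadjusted. DESeq2 with that block called 3 members, Junb, Egr1 and Nr4a1 (adjusted p = 0.00937, 0.00598 and 0.0265), against 0.861% of all genes lower.

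In replicates 3 and 4, edgeR called 7 of the 10 members lower (Fos, Jun, Junb, Jund, Egr1, Nr4a1 and Ier2), against 9.0% of 14193 genes, and 0 higher, against 11%. The 7 called lay between percentiles 49.9 and 97.3 of mean CPM among the genes tested over all 6 libraries. Fosb, Egr2 and Egr3 lay at 40.25, 22.96 and 14.61. The shares of all genes are thus not taken at like abundance. Both same-numbered pairs were lower for 9 members and for 36.2% of all genes, and 8 members were lower without overlap between the groups, against 29.4%. The members' median log2 fold change there was -0.42, and that of all genes was -0.003. Marker sums also differed between the groups in these 4 libraries. Megakaryocyte markers summed to 473 and 471 CPM in shCtrl and 300 and 292 CPM in shCxxc5 libraries 3 and 4. Most of this sum was Itgb3, with 341 and 330 against 210.7 and 205.5 CPM. Pf4, Itga2b, Vwf and Gp1ba were also lower. Gp1bb, Gp9 and Tubb1, at no more than 1.41 CPM in these libraries, overlapped between the groups. Granulocyte and monocyte progenitor markers summed to 943 and 990 against 1143 and 1151 CPM. Within that list, Prtn3 had 334 and 343 against 484 and 491 CPM, and Mpo and Ms4a3 were also higher. Ctsg, Ly6c2 and Csf1r were lower in both shCxxc5 libraries, and Elane and Cebpe overlapped between the groups. Erythroid markers summed to 27.1 and 28.9 CPM in shCtrl and 19.5 and 18.95 CPM in shCxxc5, and macrophage markers to 80.2 and 84.3 against 66.3 and 64.0 CPM. Mature neutrophil markers (594 and 541 against 487 and 562 CPM) and mast cell and basophil markers (294 and 314 against 321 and 308 CPM) overlapped between the groups. All 10 LSK markers were detected, with sums of 2552 and 2463 CPM against 2500 and 2523 CPM. The part of other cells in the lower immediate-early levels was not tested, and in bulk RNA fewer cells of a type and less RNA per cell cannot be told apart.

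The libraries numbered 2 differed from the others in the members' levels as well as in cell markers. With the hairpin as a covariate, edgeR called 6 members higher in replicate 2 than in replicates 3 and 4 (Fosb, Jun, Egr1, Egr2, Egr3 and Nr4a1), against 18.1% of 15337 genes, and 1 lower (Ier2), against 18.8%. Fosb, Jun and Egr2 rose most, by 1.97, 1.81 and 2.25 on the log2 scale (edgeR adjusted p = 0.000171, 0.000701 and 0.00116). In shCtrl, library 2 held 4.61 times the mean of libraries 3 and 4 for Fosb, 4.58 times for Jun and 4.09 times for Egr2, while Fos (1.03 times) and Junb (0.991 times) were level. Fos, Junb and Jund did not pass (log2 fold change 0.21, -0.11 and -0.03, edgeR adjusted p = 0.123, 0.192 and 0.856). The calls for Nr4a1 and Ier2 were lost without any 1 of the 4 libraries numbered 3 or 4 (edgeR adjusted p from 0.0562 to 0.102 for Nr4a1 and from 0.0569 to 0.116 for Ier2), that of Nr4a1 also without the filter (0.057), and that of Egr1 without shCtrl replicate 3 (0.0607).

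Pair 2 gave other log2 ratios than pairs 3 and 4 for several members, but it is 1 library per group. The term for this compares those 2 libraries with the rest. Replicate number, cell content and the depth of the Cxxc5 reduction cannot be told apart in that term. Cxxc5 stood at 8.20% of its same-numbered control in pair 2, and at 29.1% and 30.95% in pairs 3 and 4. The difference of the log2 ratio in replicate 2 from that in replicates 3 and 4 passed edgeR's test for 7 members, in opposite directions. It was below 0, a larger reduction in replicate 2, for Jun (-0.78, SE 0.109, edgeR adjusted p = 1.33e-08), Jund (-0.50, SE 0.0765, edgeR adjusted p = 1.58e-07), Egr1 (-0.53, SE 0.11, edgeR adjusted p = 8.42e-05) and Junb (-0.16, SE 0.0627, edgeR adjusted p = 0.0347). It was above 0, a smaller reduction in replicate 2, for Nr4a1 (0.88, SE 0.141, edgeR adjusted p = 3.58e-07), Ier2 (0.29, SE 0.0693, edgeR adjusted p = 0.000461) and Fos (0.38, SE 0.0916, edgeR adjusted p = 0.000662). These are 4 members lower, against 16.4% of 16579 genes, and 3 higher, against 15.9%. With 1 library per group numbered 2, the error of this term comes from replicates 3 and 4 alone (2 residual degrees of freedom) and the libraries numbered 2 are taken to vary as those do. DESeq2 did not call Fos (adjusted p = 0.0599) or Junb (0.243), and Junb was also lost with DESeq2's size factors in edgeR (0.0514), without the filter (0.161), and without shCtrl replicate 3, shCxxc5 replicate 3 or shCxxc5 replicate 4 (0.183, 0.0724 and 0.0937).

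**Figure D3:**
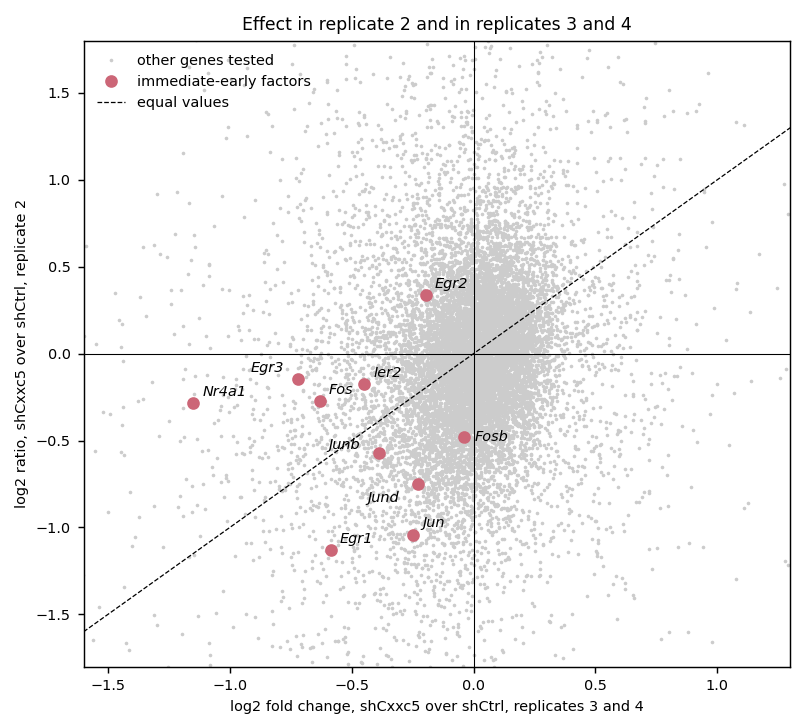
Each tested gene's log2 ratio in pair 2 (vertical) against its log2 fold change in replicates 3 and 4 (horizontal), with all genes in grey and the 10 members named; 389 of 14193 genes lie outside the axes. Nr4a1 lies at -1.15 on the horizontal axis and -0.28 on the vertical, and Jun at -0.25 and -1.04.

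Per kilobase, the 3 Jun-family transcripts summed to 326, 268 and 290 CPM per kb in shCtrl libraries 2, 3 and 4 and to 203, 223 and 219 in the shCxxc5 libraries. Every shCxxc5 sum was below every shCtrl sum. Jun itself made up 12.7% and 9.91% of that sum in the libraries numbered 2 and between 3.11% and 3.54% in the other 4. Junb gave 52.8% to 62.8% and Jund 33.0% to 37.7% of it in all libraries. For Fos and Fosb together, the sum was 39.4, 34.2 and 34.3 CPM per kb in shCtrl and 32.0, 22.2 and 22.7 in shCxxc5. Fosb made up 13.7% and 12.1% of it in the libraries numbered 2, 3.62% and 3.23% in shCtrl libraries 3 and 4, and 5.40% and 4.74% in shCxxc5 libraries 3 and 4. These are shares of transcripts, not of AP-1 protein.

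**Figure D4:**
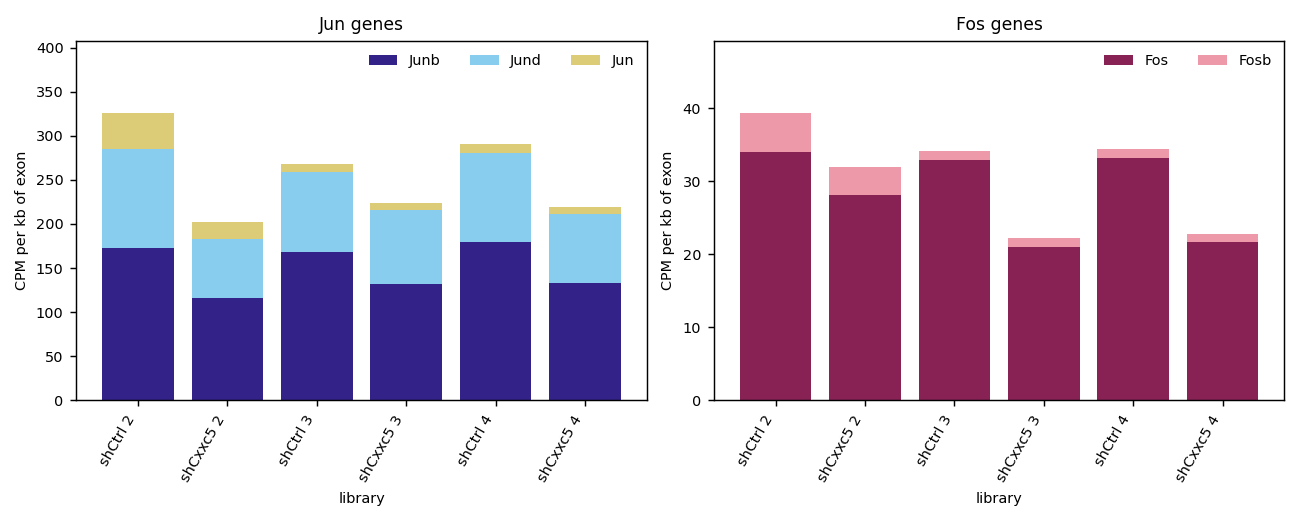
Stacked levels of the Jun-family transcripts (Jun, Junb, Jund) and the Fos-family transcripts (Fos, Fosb) in each library, in CPM per kilobase of exon, from 0. The Jun-family stack is tallest in shCtrl library 2 at 326 CPM per kb, and Junb is the largest block in every library.

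Other genes of the pathway were read from 5 lists. Among 12 AP-1 partners and regulators, 5 fell in replicates 3 and 4 (9.0% of all genes did) and 0 rose (11% of all genes), with a median log2 fold change of -0.23. Jdp2, which encodes a repressor that pairs with Jun proteins, had 34.4, 53.5 and 56.1 CPM in shCtrl libraries 2, 3 and 4 and 44.4, 30.3 and 30.8 CPM in the shCxxc5 libraries. It was lower in shCxxc5 in pairs 3 and 4 and higher in pair 2, and fell by 0.84 on the log2 scale in replicates 3 and 4 (SE 0.067, edgeR adjusted p = 2.23e-10). Fosl2, the Fos relative FRA-2, had 55.8, 31.2 and 27.5 CPM in shCtrl and 30.4, 18.9 and 18.7 CPM in shCxxc5, lower in each pair, and fell by 0.65 there (SE 0.0876, edgeR adjusted p = 2.86e-06). Atf2 fell by 0.31 (SE 0.052, edgeR adjusted p = 6.39e-05), as did Atf3 by 0.55 and Maff by 0.46 (edgeR adjusted p = 0.00299 and 0.0286), the last 2 named after their values were seen.

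Of the Egr and Nr4a relatives and corepressors, 3 of 5 were tested in replicates 3 and 4. Nab1, which encodes a corepressor of EGR proteins, fell by 0.13 (edgeR adjusted p = 0.03), and Nab2, the other corepressor, at -0.12, and Nr4a2, at -0.50, did not pass (edgeR adjusted p = 0.281 and 0.158). The 11 regulators that switch immediate-early genes on were serum response factor, its Elk and Mrtf partners, and the Creb family with its Crtc partners. Their median in replicates 3 and 4 was -0.01. There, 0 of 11 passed edgeR's test, against 9.0% of all genes lower and 11% higher. At an unadjusted p under 0.05 stood 1 of 11, against 4526 of 14193 genes. Srf had 70.9 and 75.5 CPM in shCtrl and 77.3 and 74.8 CPM in shCxxc5 libraries 3 and 4, a log2 fold change of 0.07 (SE 0.0531, edgeR adjusted p = 0.435). Mrtfb and Crem, the members of smallest p beside it, had values of 0.21 and -0.25 (edgeR adjusted p = 0.153 and 0.224).

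Among 38 tested genes of a list of 40 other immediate-early genes, 18 fell and 1 rose (Id3) in replicates 3 and 4, against 9.0% and 11% of all genes, with a median of -0.24. Klf2, a quiescence-associated Krüppel-like factor gene, had 43.8, 38.5 and 40.8 CPM in shCtrl and 24.6, 19.9 and 20.7 CPM in shCxxc5 libraries 2, 3 and 4. Its groups did not overlap, and in replicates 3 and 4 it fell by 0.96 on the log2 scale (SE 0.0785, edgeR adjusted p = 3.61e-10). Cd69, an early activation antigen gene, fell by 0.92 there (SE 0.043, edgeR adjusted p = 1.2e-15) and Rgs1, which encodes a brake on G protein signalling, by 0.81 (SE 0.0585, edgeR adjusted p = 2.2e-11). Heat shock genes, listed because they can respond to cell handling, had a median of 0.29 in replicates 3 and 4. Of 8 tested, 6 rose, against 11% of all genes, and 0 fell, against 9.0%. Hspa1b and Hspe1 did not pass (edgeR adjusted p = 0.391 and 0.998), and Hspa1a was too scarce to be tested there. The part of cell handling in any of these levels was not tested. Hsph1 rose from 83.6 and 87.6 CPM to 112 and 122 CPM in libraries 3 and 4 (log2 fold change 0.46, SE 0.0502, edgeR adjusted p = 8.28e-08). Hspd1 and Hsp90aa1 rose by 0.31 and 0.26 (edgeR adjusted p = 2.18e-07 and 4.75e-06). Over all 6 libraries edgeR called 0 of the 73 tested genes of these 5 lists and 0 of all genes. At an unadjusted p under 0.05 stood 8 of the 73, against 575 of 14637 genes.

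**Figure D5:**
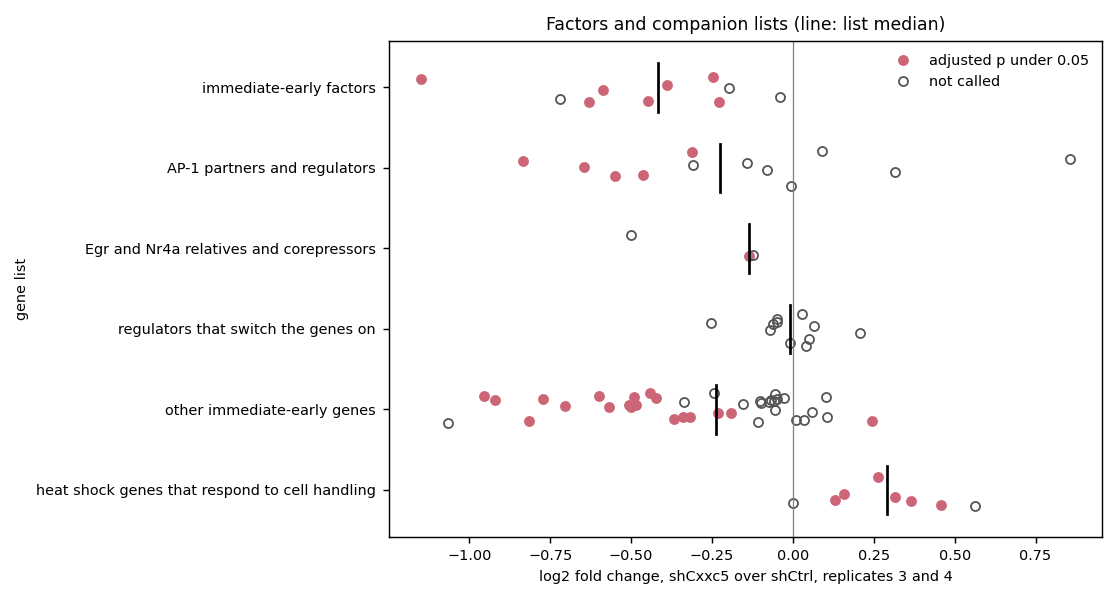
Log2 fold change in replicates 3 and 4 (shCxxc5 over shCtrl) of every tested gene in the member set and the 5 lists, with genes past an adjusted p of 0.05 filled and the median of each list as a line. The median is -0.42 for the members, -0.24 for other immediate-early genes, -0.01 for the regulators and 0.29 for heat shock genes.

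Over the 6 libraries, the genes whose log2 CPM followed Fos most closely among 9648 abundant genes were Cars (Pearson's r 0.993), Tsc22d3 (0.987), C9orf72 (0.985), Sars (0.984) and Snap23 (0.982). Cars and Sars encode transfer RNA synthetases, and Tsc22d3 encodes the glucocorticoid-induced leucine zipper protein. Egr1 was followed most closely by Pcnx (0.997), 6030458C11Rik (0.995), Slc7a1 (0.994), Trio (0.993) and Tmem246 (0.991). Pearson's r takes no account of the size of a difference. 6030458C11Rik ran only from 64.8 to 69.2 CPM over the 6 libraries, and Egr1 from 29.9 to 87.8 CPM. No gene was among the 5 for both Fos and Egr1. These values describe 6 libraries that share 2 groups and a replicate number that stands apart, and were picked as the highest of 9648.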

How the data were processed

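RNA was sequenced from 20000 to 50000 sorted cells per library with a stranded mRNA kit, per the labels' protocols, which name both single-read and paired-end runs. The authors deposited raw read counts per Ensembl gene; per the submitters' processing notes, tools were STAR 2.5.2b, featureCounts 1.5.1 and DESeq2, on GRCm38. The strand setting is not given in the sources used here. Symbols came from GENCODE M21 for 49412 of 49671 identifiers.

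Counts were tested with edgeR 4.0.16 in R 4.3.3 (TMM, filterByExpr, robust quasi-likelihood test on the group), with Benjamini-Hochberg adjustment over all tested genes at a threshold of 0.05. Comparisons were all 6 libraries, replicates 3 and 4, replicate 2 against 3 and 4, and the interaction. Pair ratios use log2 CPM with a prior count of 2. The counts carry no molecular identifiers. Totals of 15002414 to 27754019 reads set the counting error given with the pair ratios.

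The genes named are the 10 members, Cxxc5, the 3 genes of smallest unadjusted p in each of 5 lists, and the 5 genes most like Fos and Egr1. The members and lists were chosen with earlier results of these data known. Atf3, Maff, Id3, Hspa1a, Hspa1b, Hspe1 and the single megakaryocyte and granulocyte and monocyte progenitor markers were named after their values were seen. Ly6a, Cd3e and the antisense neighbours Junos, Prdx2 and Gm11175 were named for checks of the sort, of other cells and of strand. The result of 1 marker list is not reported here.

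Replicate numbers occur in both groups. Deviations from the group means correlated at 0.67, 0.554 and 0.489 between same-numbered libraries 2, 3 and 4. Libraries 3 and 4 of opposite groups correlated at 0.489 and 0.475, and number 2 with 3 or 4 between -0.609 and -0.56. The check thus matched the 2 libraries numbered 2. With number 2 standing apart, deviations from a group mean make 3 and 4 alike, so it cannot pair 3 with 3 or 4 with 4. The meaning of a number is not in the labels.

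Alternatives were DESeq2 1.42.0, limma-voom with limma 3.58.1, other scalings, filters and prior counts, the replicate block and leaving out each library. The code was tested on simulated counts.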

Additional observations from a re-analysis of the deposited data

How the results depend on the processing

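Over all 6 libraries, DESeq2 called 1 member and 19 genes in all, and DESeq2 with the replicate block, an alternative added after seeing the data, called 3 members and 147 genes, where edgeR called 0 with or without the block. The members' median was -0.47 with DESeq2 and the block, and from -1.06 to -0.39 when single libraries were left out. Members lower without overlap numbered 8 in replicates 3 and 4 alone, against 5 over all libraries. In replicates 3 and 4, 2833 genes were called with edgeR, 1353 with DESeq2 and from 1507 to 2043 without single libraries, where the lone library of a group is taken to vary like the other group, and the members' median ran from -0.46 to -0.40. Between replicate 2 and the others, 0 members were lower in each fit without 1 library, and from 3183 to 3892 genes were called, against 5660. For the interaction DESeq2 called 2339 genes against 5347, and the members' median of 0.06, without single libraries, ran from -0.011 (without shCtrl replicate 3) to 0.085. Without single libraries, values over all libraries ran from -1.18 to 0.81 for Fosb, -1.40 to 0.38 for Jun, -1.18 to 1.22 for Egr2 and -1.25 to 0.17 for Egr3. Signs turned without shCtrl replicate 2 for Fosb, Jun and Egr3, and for Egr2 without shCtrl replicate 3, shCtrl replicate 4 or shCxxc5 replicate 2 (-0.05, -0.18 and -1.18). In replicates 3 and 4 the range was -0.125 to 0.047 for Fosb, positive without shCtrl replicate 3 or shCxxc5 replicate 4, and -0.47 to 0.27 for Egr2, positive without shCtrl replicate 3. Between replicate numbers it was -0.105 to 0.023 for Jund, positive without shCxxc5 replicate 3. The interaction of Fosb passed without shCtrl replicate 3 (edgeR adjusted p = 0.04). The causes were not tested. The pair ratios of the members kept their direction under every prior count and scaling tried. Depth limits Egr2 and Egr3 most, with 10 to 38 counts per library in replicates 3 and 4.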

Other observations

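Some other immediate-early genes had opposite signs in pair 2 and in replicates 3 and 4, as values chosen after they were seen. Cd69 had 100.1, 180.2 and 181 CPM in shCtrl libraries 2, 3 and 4 and 127, 93.1 and 97.1 CPM in the shCxxc5 libraries, higher in pair 2 and lower in both other pairs. Rgs1 had 72.7, 75.7 and 77.5 CPM in shCtrl and 95.6, 44.7 and 41.8 CPM in shCxxc5. The 2 genes' interaction terms were 1.28 and 1.23 on the log2 scale (edgeR adjusted p = 6.63e-25 and 1.52e-19), and that of the AP-1 repressor gene Jdp2 was 1.23 (edgeR adjusted p = 6.5e-15). Id3, an inhibitor of basic helix-loop-helix factors, went the other way, with 35.1, 36.4 and 34.3 CPM in shCtrl and 17.0, 41.8 and 41.9 CPM in shCxxc5 (interaction -1.27, edgeR adjusted p = 2.09e-13). Klf2 was lower in shCxxc5 in each pair, at log2 ratios of -0.83, -0.95 and -0.97, and its interaction term did not pass (0.15, edgeR adjusted p = 0.428).

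Of the regulators that switch immediate-early genes on, which passed in 0 of 11 cases in replicates 3 and 4, 8 were lower and 3 higher by the interaction term, against 16.4% and 15.9% of all genes. Srf had 141 CPM in shCtrl library 2 and 113 CPM in shCxxc5 library 2 (interaction -0.36, edgeR adjusted p = 0.000223).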
